A study of Mus musculus with 12 samples.

Results

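The miR-17-92 cluster and its paralogue on the X chromosome, miR-106a-363, encode 10 mature mouse miRNAs that the arrays of this study probed under their guide-strand names: mmu-miR-17, mmu-miR-18a, mmu-miR-18b, mmu-miR-19a, mmu-miR-19b, mmu-miR-20a, mmu-miR-20b, mmu-miR-92a, mmu-miR-106a and mmu-miR-363 (the prefix is left out below). They were taken as the probes whose name holds exactly 1 of these mouse names, and all 10 were found among 595 mouse miRNA probes, each printed as 4 spots per array. Liver RNA came from male B6C3F1 mice. For 3 days the mice behind 6 samples received 150 mg/kg per day of BaP, or benzo(a)pyrene, a combustion product whose metabolites bind DNA. The mice behind the other 6 samples received the corn oil vehicle alone for 3 days. The labels do not say which animal a sample represents. The series calls the animals adult, while the labels give an age of 27 to 30 days. The median liver lobe was taken 4 h after the last dose in all 12 samples. A collection at 24 h that the design names was not analysed here. On each 2-colour array the Hy5 dye marked 1 liver RNA and the Hy3 dye marked a commercial reference pooled from 10 mouse tissues, which the labels do not name. No array had the dyes exchanged.

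MicroRNAs of a cluster are cut from 1 primary transcript, and each then silences transcripts that pair with its seed, the short stretch near its 5′ end. The miR-17-92 transcript is induced by MYC and E2F factors and is known for its part in cell proliferation, in B lymphocyte development and in lymphoma and other tumours. Members with the miR-17 seed are known to target the cell-cycle inhibitor Cdkn1a and E2F1, and members with the miR-92 seed target the pro-apoptotic Bcl2l11. Most hepatocytes of a resting liver do not divide, and the clusters are studied there mainly in regeneration and liver cancer. The X-linked copy is known for low expression in most normal tissues.

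The mature sequences are shown because the members fall into 4 seed groups and because several differ by so few bases that hybridisation may not separate them. Sequences and positions are those of RefSeq for GRCm38.p6, where all 10 names were matched. Each runs 5′ to 3′ with the seed, bases 2 to 8, in capitals.
miR-17: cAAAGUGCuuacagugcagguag
miR-20a: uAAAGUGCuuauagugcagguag
miR-106a: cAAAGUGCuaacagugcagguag
miR-20b: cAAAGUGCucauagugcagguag
miR-18a: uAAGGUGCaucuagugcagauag
miR-18b: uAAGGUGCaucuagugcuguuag
miR-19a: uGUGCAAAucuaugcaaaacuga
miR-19b: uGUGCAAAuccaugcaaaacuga
miR-92a: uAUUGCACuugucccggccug
miR-363: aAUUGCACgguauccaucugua

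The miR-17-92 hairpins occupy 836 bp of the plus strand of chromosome 14 (chr14:115043671-115044506), in the order miR-17, miR-18a, miR-19a, miR-20a, miR-19b and miR-92a. The miR-106a-363 hairpins occupy 875 bp of the minus strand of the X chromosome (chrX:52741693-52742567), and transcription meets miR-106a, miR-18b, miR-20b, miR-19b, miR-92a and miR-363 in turn. miR-19b and miR-92a therefore have a locus in each cluster with the same mature sequence, so their probes cannot assign signal to either. Counting positions from 1 at the 5′ end, miR-17 and miR-106a differ only by U10A, and miR-19a and miR-19b only by U11C. miR-17 differs from miR-20a by C1U and C12U and from miR-20b by U10C and C12U, and miR-18a differs from miR-18b by A18U and A20U. Signal of a probe in these groups may include that of its neighbours, and values of near-identical members are not independent of each other.

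The signals split the clusters into members that liver RNA lit and members that it did not. A probe was taken as above background when more than 0.5 of its spots lay over a limit set from 28 negative controls of that array, their median plus 2.6 scaled median absolute deviations. miR-17, miR-20a, miR-106a, miR-19a and miR-19b passed in liver on all 12 arrays, as did 25.9% of the 595 mouse probes. Their median net liver signals, in intensity units after subtraction of the local background, were 134 for miR-17, 112 for miR-20a, 62.4 for miR-106a, 122 for miR-19a and 175 for miR-19b. The same 5 probes were above background in the reference on all 12 arrays, where 38.3% of mouse probes were. Signals of different probes also reflect their affinities, so they give no order of abundance.

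miR-20b, the X-linked member with the miR-17 seed, was above background in the reference on all 12 arrays, with a net signal of 127 to 227. In liver it passed on 2 arrays only, vehicle 1 and BaP 1, whose thresholds were the lowest of the 12 (1.92 and 2.89 units, against up to 28.8 elsewhere). This combination, all 12 arrays in the reference and at most 2 in liver, was met by 50 of the 595 mouse probes (8.4%). miR-18a and miR-18b were above background in neither channel on any array; 36.3% of mouse probes stayed at background in the reference throughout. The probe for miR-92a passed in liver on the same 2 arrays and in the reference on BaP 3 alone, with net signals of 6.13 to 27 in liver and 27.6 to 69.7 in the reference. miR-363 passed on no array in liver, like 40.7% of mouse probes, and in the reference on vehicle 1 alone.

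**Figure D1:**
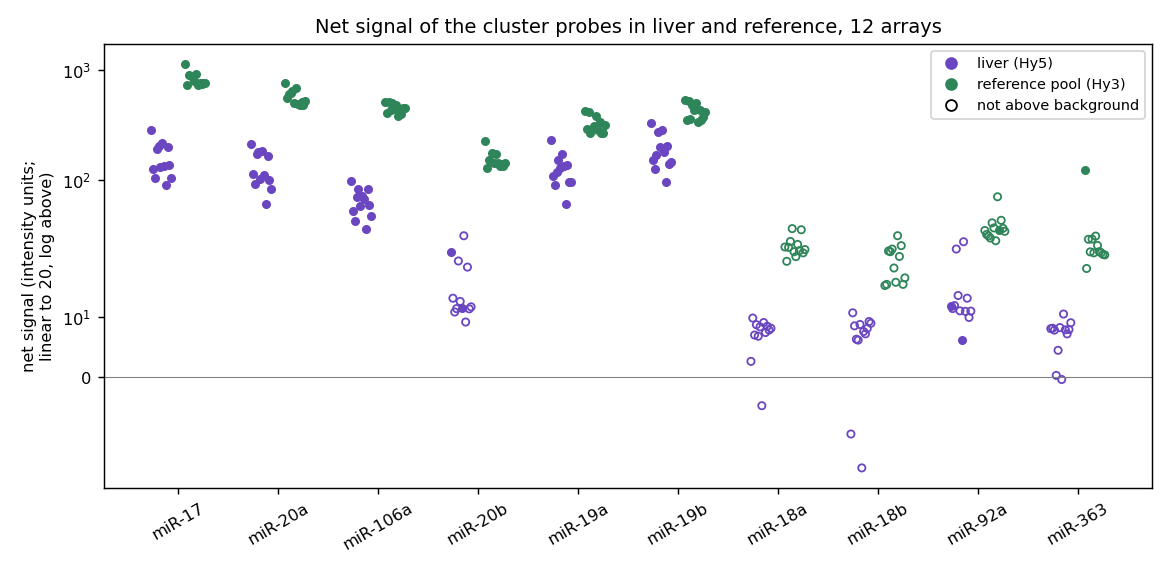
Net signal of each cluster probe in liver (purple) and in the reference pool (green), 12 arrays each, on an axis that is linear to 20 units and logarithmic above; open symbols are values not above background. The 5 probes miR-17, miR-20a, miR-106a, miR-19a and miR-19b are filled in both channels, miR-20b is filled throughout only in the reference, and the other 4 are almost wholly open.

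Ratios of liver over reference were computed on the log2 scale after background correction with an added offset of 50 units and loess normalization within each array, so each ratio is relative to the bulk of the array's spots. In vehicle liver miR-106a had a mean log2 ratio of -1.09 ± 0.16 (SD, n = 6), 2.12-fold lower than in the pool. The 6 vehicle values of miR-106a ran from -1.39 to -0.91 with a median of -1.05. miR-17, its near twin on chromosome 14, had a ratio of -1.07 ± 0.16 (SD, n = 6), 2.10-fold lower, with a lowest value of -1.32, a median of -1.06 and a highest of -0.86. The means of this pair differed by 0.02, less than either SD, and the arrays were split evenly, 6 with miR-106a lower and 6 with miR-17 lower.

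miR-20a, encoded on the same transcript as miR-17, had a vehicle ratio of -0.74 ± 0.15 (SD, n = 6), from -1.02 to -0.61 with a median of -0.70. It lay above miR-17 on all 12 arrays. The miR-19 pair lay close to the pool, with 0.02 ± 0.15 for miR-19a (-0.15 to 0.19, median 0.01) and 0.08 ± 0.20 for miR-19b (-0.16 to 0.33, median 0.06; SD, n = 6 each). miR-19a exceeded miR-20a on all 12 arrays by a margin of 0.76 in the vehicle means, several times the SD of either. miR-19a and miR-19b differed by 0.06, less than either SD. The mouse-named probes of miR-17, miR-20a and miR-19a, members of 1 primary transcript, thus had different liver over reference ratios on every array. For miR-17 and miR-20a this depended on the probe. Human-named probes, described below, had vehicle means of -0.80 for miR-17 and -0.77 for miR-20a. Of these 2, miR-17 lay higher on vehicle 3 (-0.63 against -0.95) and lower on vehicle 6 (-0.80 against -0.64). Without exchanged dyes a ratio includes the dye bias of its probe, so the order of the ratios is a description of the probes.

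miR-20b had a measured ratio of -0.78 ± 0.13 (SD, n = 6), which is mostly a ratio of the pool's signal to a background signal in liver. Of the 6 members above background in the reference on at least 3 vehicle arrays, 2 were at least 2-fold lower in vehicle liver, miR-17 and miR-106a, beside 67 of 341 mouse miRNAs (19.6%). Single vehicle values of both lay on either side of the 2-fold line. A separate human-named probe for miR-17 was 1.74-fold lower in vehicle liver. The median ratio of the 6 members was -0.76, beside -0.25 over the 341. In that list 18.5% of the miRNAs had a lower ratio than miR-17 and 78% a lower one than miR-19b. Ratios of the 4 probes that were dim in both channels had vehicle means between -0.16 and 0.10 and carry no information on the level of those miRNAs. No test was made against the pool, which is not a sample of a group.

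The size of these ratios depended on the normalization. With median centring the vehicle ratios were -1.91 for miR-17, -1.92 for miR-106a, -1.60 for miR-20a, -0.83 for miR-19a and -0.78 for miR-19b, and 4 of the 6 members were at least 2-fold lower, beside 36.7% of all. With an offset of 10 the count was 3, beside 28.2%. Without normalization within arrays the count was also 4, beside 44%. With the scanner software's processed signals it was 4 beside 40.2%, and with plain background subtraction 4 beside 42.8%. Among the mouse-named probes the miR-19 pair lay above miR-20a, and miR-20a above miR-17 and miR-106a. This held under each of the 8 alternatives of background correction, normalization and spot averaging.

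**Figure D2:**
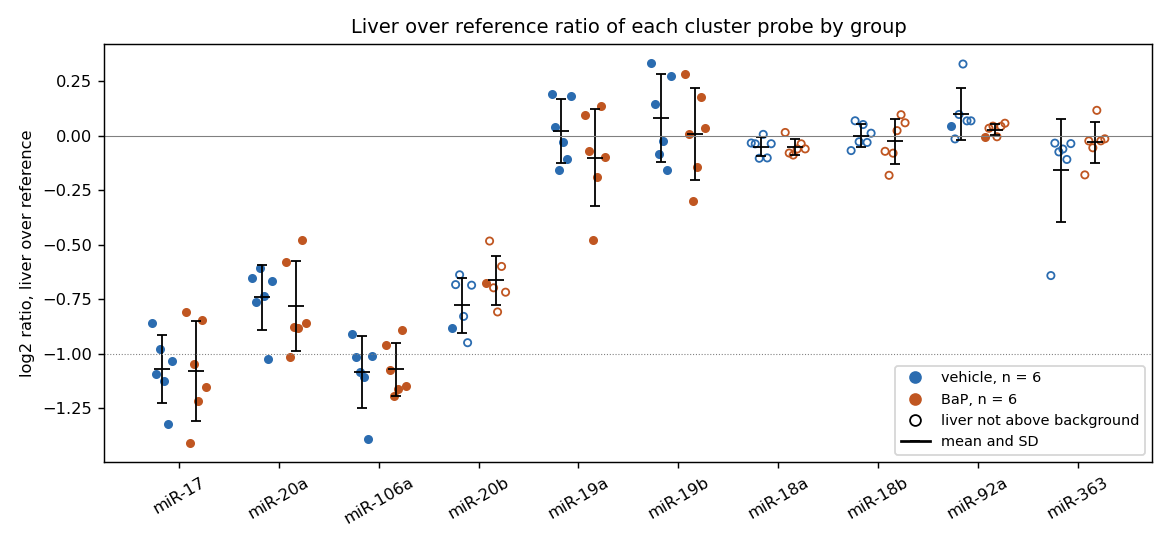
Log2 ratio of liver over reference for each cluster probe on 6 vehicle (blue) and 6 BaP (orange) arrays, with the mean and SD of each group; open symbols mark arrays without liver signal above background and the dotted line a 2-fold lower level. miR-17 and miR-106a lie near -1.1, miR-20a near -0.75 and the miR-19 pair near 0 in both groups, and the groups overlap for every probe.

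The arrays also held separate probes under human names for miR-17, miR-18a, miR-18b, miR-20a and miR-106a; the human and mouse guide strands of miR-17, miR-18a and miR-20a are known to be identical, while those of miR-18b and miR-106a differ. The human-named miR-17 and miR-20a probes were above background in both channels on all 12 arrays. Their vehicle ratios were -0.80 ± 0.16 and -0.77 ± 0.15 (SD, n = 6 each), which puts hsa-miR-17 above the mouse-named probe of the same miRNA (-1.07) and hsa-miR-20a next to it (-0.74). The human-named miR-106a probe gave -0.79 ± 0.14. The human-named miR-18a probe was above background in the reference on all 12 arrays, with a median net signal of 124, and in liver on vehicle 1 only. The mouse-named miR-18a probe, whose median net reference signal was 23.4, was above background on none. The human-named miR-18b probe likewise passed on all 12 arrays in the reference and on vehicle 1 in liver. For miR-18a the 2 probes therefore gave opposite answers on its presence in the pool and the same answer, little or no signal, in liver.

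The second comparison asked whether BaP changed these miRNAs 4 h after the last dose. The test took in the 212 mouse miRNAs whose liver signal passed the limit on 3 or more arrays in either group. Of these limma called 0 (0%) at an adjusted p of 0.05, with 2 at an unadjusted p under 0.05 (0.943%) and 3 by an exact permutation test of each miRNA (1.42%). The tested set included 5 of the 10 members, miR-17, miR-20a, miR-106a, miR-19a and miR-19b and none of them was called. For none did the groups fail to overlap, as for 0 of all 212 (0%). Estimates were below 0 for 4 of the 5 (42% of all 212 were) and above 0 for 1 (58% of all). The median of the 5 differences was -0.04 and that of all 212 was 0.01. In bulk liver RNA, fewer cells of a type and less of a miRNA per cell cannot be told apart.

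Among members with the miR-17 seed, miR-17 ran from -1.41 to -0.81 in BaP liver with a median of -1.10, a range that took in all 6 vehicle values. The BaP minus vehicle difference was -0.011 (95% limma interval -0.24 to 0.22; adjusted p 0.990 in limma; two-sided exact permutation p = 0.931). In linear terms the interval reached from 0.847-fold to 1.16-fold. The BaP values of miR-20a ran from -1.02 to -0.48 with a median of -0.87, again overlapping the vehicle values. Its difference was -0.042 (-0.25 to 0.17; adjusted p 0.990 in limma; exact permutation p = 0.693). miR-106a ran from -1.19 to -0.89 in BaP liver with a median of -1.11. Its difference was 0.013 (-0.16 to 0.19; adjusted p 0.990 in limma; exact permutation p = 0.883), and 3 of 6 BaP arrays lay above the vehicle mean.

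The miR-19 pair had the lowest estimates. miR-19a ran from -0.48 to 0.14 in BaP liver with a median of -0.08, and the lowest of these values, on BaP 3, lay under every vehicle value. Its difference was -0.12 (-0.34 to 0.10; adjusted p 0.990 in limma; exact permutation p = 0.297), with 4 of 6 BaP arrays below the vehicle mean. Without BaP 3 it was -0.05. miR-19b ran from -0.30 to 0.28 in BaP liver with a median of 0.02, and BaP 3 was again the lowest. Its difference was -0.071 (-0.31 to 0.17; adjusted p 0.990 in limma; exact permutation p = 0.561), and -0.0088 without BaP 3.

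The 95% intervals of all 5 tested members excluded a 1.5-fold rise and a 1.5-fold fall, as did 94.3% of the 212. These bounds hold on the measured scale. The offset of 50 units compresses changes of dim probes: at the median liver signal, 2 times the net signal would read as 1.78-fold for miR-19b, 1.73-fold for miR-17 and 1.56-fold for miR-106a, and a fall to 50% of it as 1.38-fold for miR-106a. With an offset of 10, which compresses less, the differences were -0.05 for miR-17, -0.08 for miR-20a, 0.0017 for miR-106a, -0.14 for miR-19a and -0.09 for miR-19b, none past the threshold.

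The other 5 members were not tested. Their measured differences were 0.11 for miR-20b, 0.13 for miR-363, -0.07 for miR-92a, -0.03 for miR-18b and -0.0008 for miR-18a. Exact permutation p-values, in the same order, were 0.130, 0.255, 0.110, 0.584 and 0.939. Liver signals of these 5 members were at background on most or all arrays. There 2 times the signal would read as at most 1.19-fold, so the differences bound nothing. Without vehicle 1 the miR-363 value was 0.03.

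**Figure D3:**
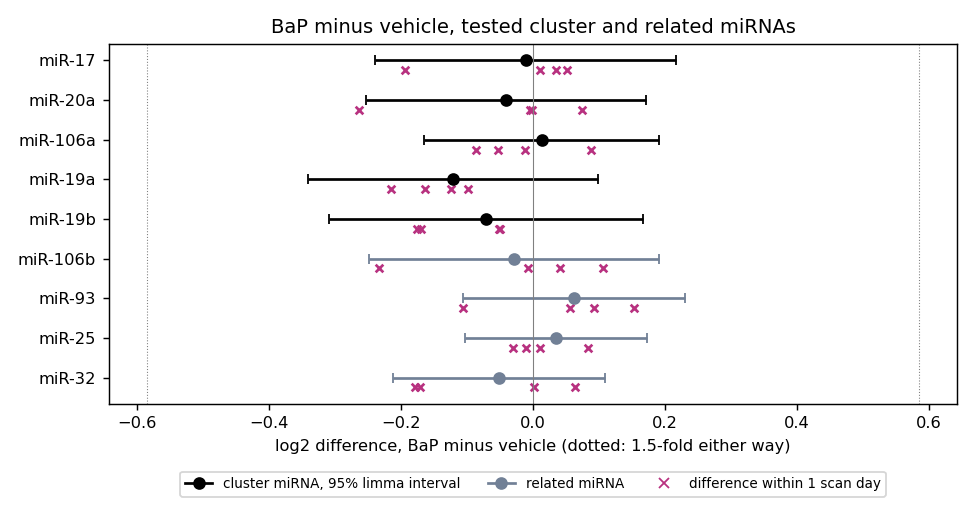
BaP minus vehicle difference in log2 ratio with its 95% limma interval for the 5 tested cluster miRNAs (black) and 4 related miRNAs (grey), with the differences within each of 4 scan days as crosses; dotted lines mark a 1.5-fold change. Every interval spans 0 and lies inside the dotted lines. For dim probes this holds on the measured scale only. At the median liver signal, 2 times the net signal would read as 1.28-fold for miR-25 and 1.47-fold for miR-32.

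The reference RNA was the same on every array, so its own difference between the groups measures the arrays and not the livers. With each channel quantile normalized alone, miR-20a differed between BaP and vehicle arrays by -0.12 in liver and by -0.11 in the reference. For miR-19b the values were -0.07 in liver and -0.06 in the reference, and for miR-17 -0.05 and -0.07. miR-19a differed by -0.07 in liver and -0.02 in the reference, and miR-106a by -0.05 and -0.02. The miR-20b difference was -0.02 in liver and -0.12 in the reference. Over the 12 arrays the SD of the liver channel was 0.15 to 0.21 for the 5 tested members, and that of the reference channel 0.09 to 0.15.

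The 5 tested members shared much of their variation from array to array. The SD, over the 12 arrays, of the difference between 2 members' log2 ratios was 0.07 for miR-19a with miR-19b and 0.08 for miR-17 with miR-20a, against a median of 0.20 over all pairs of the 212 miRNAs. It was 0.13 for miR-17 with miR-106a, which share a seed, and 0.12 for miR-19b with miR-106a, which do not. The widest of the 10 pairs was miR-17 with miR-19a at 0.20, and these share a transcript. The mean profile of the 5, centred on 0, was high on vehicle 1 (0.20), BaP 1 (0.19), BaP 5 (0.20) and vehicle 6 (0.13), and low on vehicle 5 (-0.22) and BaP 3 (-0.20). These high and low arrays include both groups. The arrays were scanned on 4 days that each held both groups, and the mean profile per day was 0.19, 0.09, -0.07 and -0.13 in time order.

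With scan day as a block, none of the 5 was called: the differences were -0.16 for miR-19a and -0.12 for miR-19b (adjusted p 0.856 in limma for each), -0.08 for miR-20a, -0.05 for miR-17 and -0.02 for miR-106a. Within the 4 scan days miR-19a differed by -0.10, -0.16, -0.22 and -0.12, all below 0. The values were 0.05, 0.03, -0.19 and 0.01 for miR-17, 0.07, -0.0043, -0.26 and -0.0017 for miR-20a and -0.05, -0.01, -0.09 and 0.09 for miR-106a. miR-19b was below 0 on each day (-0.05, -0.17, -0.18 and -0.05). The first day held 1 array per group and the others at most 2, so the sign on each day rests on very few arrays.

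**Figure D4:**
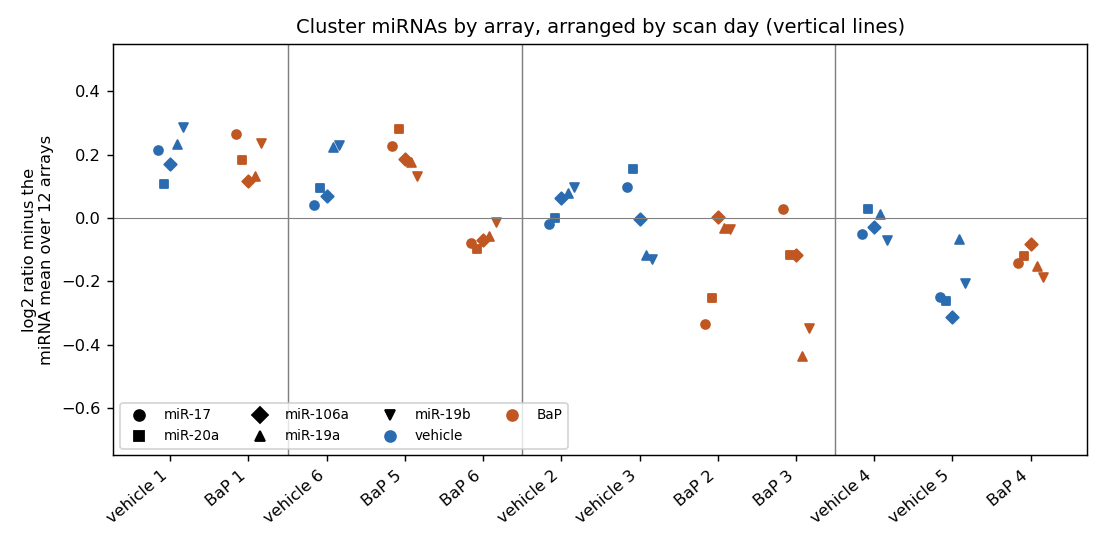
Log2 ratio of the 5 tested cluster miRNAs minus each one's mean over 12 arrays, by array and arranged by scan day in time order; symbols give the miRNA and colours the group (vehicle blue, BaP orange). The 5 symbols of an array mostly sit together, high on vehicle 1, BaP 1 and BaP 5 and low on vehicle 5 and BaP 3, in both groups.

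The third cluster of the family, miR-106b-25, lies on chromosome 5 (chr5:138165321-138165818) in an intron of Mcm7, a subunit of the replicative helicase, and its 3 guide strands carry 2 of the same seeds.
miR-106b: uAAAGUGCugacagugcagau
miR-93: cAAAGUGCuguucgugcagguag
miR-25: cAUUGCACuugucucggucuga
All 3 were tested and none was called. Vehicle ratios were -0.76 ± 0.18 for miR-106b, -0.85 ± 0.13 for miR-93 and -0.62 ± 0.12 for miR-25 (SD, n = 6 each). Measured ratios of the miR-17 seed carriers on all 3 chromosomes lay below 0, but so did the median of the 341 mouse miRNAs, -0.25. In that list 74.2% of the miRNAs had a lower ratio than miR-19a, which lay at 0.02. The X-linked values rest on miR-106a, which differs from miR-17 only by U10A, and on miR-20b, whose liver signal was mostly at background. BaP minus vehicle differences were -0.03 (-0.25 to 0.19), 0.06 (-0.11 to 0.23) and 0.03 (-0.10 to 0.17). miR-25 was above background in liver on 5 of 12 arrays only.

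Of the other carriers of the miR-92 seed on the list, miR-32 was the only 1 of 3 tested; its sequence is shown as it is the miRNA whose pattern was most like the clusters'.
miR-32: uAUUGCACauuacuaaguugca
Its vehicle ratio was 0.18 ± 0.14 (SD, n = 6) and its difference -0.05 (-0.21 to 0.11; adjusted p 0.990 in limma). miR-92b and miR-367 were above background in liver on 1 and 0 arrays. Likeness was measured as the root mean square difference between a miRNA's centred log2 ratios and the mean profile of the 5 members over the 12 arrays. It was 0.07 for miR-32, 0.08 for miR-27a and 0.09 for miR-106b, the 3 closest of the other 207 tested miRNAs, against a median of 0.18. These profiles share the arrays, their scan days and their normalization. Passenger strands, the arms that are mostly degraded after processing, had 6 probes. None was tested; miR-17* passed in the reference on 11 arrays and in liver on 3, miR-18a* in liver on 1 and the other 4 in neither channel on any array.

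The labelled tissue was checked against cell markers. The hepatocyte markers miR-122, miR-192 and miR-194 were above background on all 12 arrays, with a mean log2 ratio over the 3 of 2.93 to 3.32 in vehicle and 2.86 to 3.43 in BaP liver. Leukocytes, in which the miR-17-92 cluster is known to be active, were represented by 6 markers, 4 of them above background in liver on all 12 arrays and miR-155 on none. Their summed net liver signal, not normalized between arrays, was 300.2 to 776 units in vehicle and 221 to 466 in BaP liver. The hepatocyte sums were 14428 to 41745 in vehicle and 14034 to 35627 in BaP liver. Net liver signal of miR-150 reached 281, against a median of 26.3 over the 12 arrays. The mean ratio of the leukocyte markers ran from -1.50 to -1.30 in vehicle and from -1.58 to -1.37 in BaP liver. All 5 tested leukocyte markers had estimates below 0, as had 42% of the 212 tested miRNAs, and none was called. They ran from -0.28 for miR-150, which became 0.02 without vehicle 5, to -0.0008 for miR-142-3p. The untested miR-155 had a measured difference of 0.10. The part of leukocytes in the cluster values was not tested. The erythroid markers miR-451 and miR-144 were above background on all 12 arrays with differences of -0.06 and -0.18, neither called. The remaining erythroid marker, miR-486, was above background in liver on 2 vehicle arrays and no BaP array, and was not tested. The 2 endothelial markers were also present on all 12 arrays, whereas no muscle or brain marker passed in liver on more than 2. Over the 12 arrays, 166 to 341 mouse probes were above background in liver and 235 to 365 in the reference, and the number of arrays limits the precision.

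**Figure D5:**
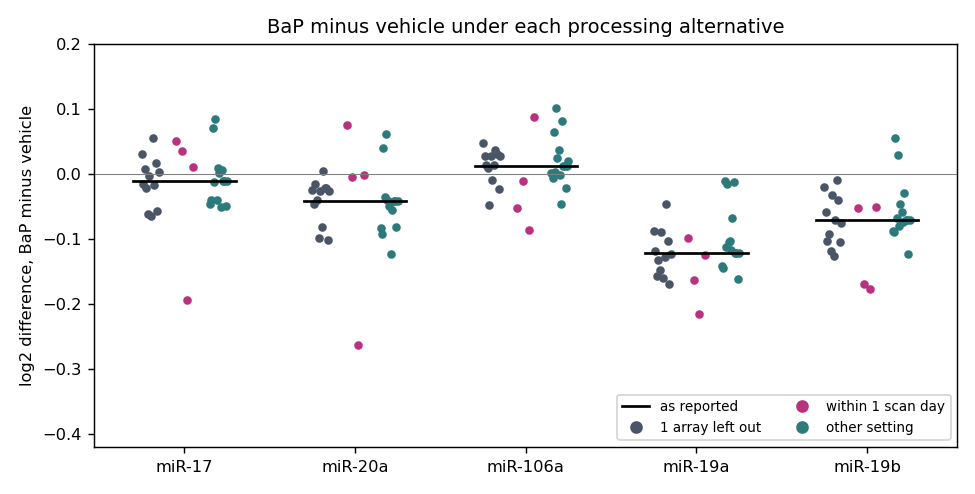
BaP minus vehicle log2 difference of the 5 tested cluster miRNAs as reported (black line) and under each alternative: 1 array left out (grey), within 1 scan day (pink) and other settings of the processing or the fit (teal). miR-19a stays below 0 throughout, with its highest point at -0.010, whereas points of the other 4 fall on both sides of 0.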

How the data were processed

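The members and lists were chosen with earlier results of these data known. The deposited scanner files hold spot intensities (mean signal and median local background, not normalized). The submitters' processing notes name Agilent Feature Extraction 9.5.3.1. Its processed signals are background-subtracted and dye-normalized, per the file headers. Its own flag for signal well over background marked every spot and was not used. A deposited matrix of log2 values, with scale and centring unstated, covered 248 probes and 2 members; against these ratios over 37 bright probes its slope was -1.01 to -0.943, so it holds log2 reference over liver, with column medians of -0.09 to -0.0003.

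In limma 3.58.1 under R 4.3.3, normexp (offset 50) preceded loess within each array; control spots and flagged outliers had weight 0. Unflagged spots of a probe were averaged. The fit (lmFit, eBayes) covered all 212 tested miRNAs, with Benjamini-Hochberg adjustment, and was tested on simulated data. The exact permutation test used all 924 regroupings of the 12 arrays. Named were the members, the related and marker lists, and the 3 miRNAs closest in pattern. Nothing in the labels says which animal an array represents, and p-values therefore reflect variation among these samples, possibly technical. Replicate numbers follow accession order. Alternatives covered background correction, normalization, channel, spots, filter, scan day, title digit and each array left out. Figures were drawn with matplotlib 3.10.9.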

Additional observations from a re-analysis of the deposited data

Results flagged for a closer look

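Of 20 groups of 6 values (10 members, vehicle and BaP), 3 held an array far from the other 5 by Dixon's test, where chance flags about 1 in 20. The miR-363 ratio on vehicle 1 was -0.64, against -0.11 to -0.03 on the other vehicle arrays. Its net reference signal there was 123, and 1 of the 4 spots gave 321 units in the reference while the other 3 gave 52 to 59.6. The miR-92a ratio on vehicle 4 was 0.33, against -0.01 to 0.10 on the others, with net signals of 23.2 in liver and 29.2 in the reference, neither above background. The miR-20a ratio on vehicle 5 was -1.02, against -0.76 to -0.61 on the others, with net signals of 178 in liver and 645 in the reference. miR-17 and miR-106a were also lowest in the vehicle group on vehicle 5.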

How the results depend on the processing

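The sample titles of the groups share last digits whose meaning the labels do not give. Deviations from the group means correlated at -0.08 to 0.72 over the 6 same-digit pairs, 4 of them over 0.1. Of the 12 samples, 6 correlated best with their own digit. As 5 of the 6 pairs shared a scan day, a shared digit and a shared scan day cannot be told apart here. The digits were not taken as pairs because the labels do not say what they mean. A fit with the digit as a replicate block, chosen after seeing the data, called 0 miRNAs, with 7 at an unadjusted p under 0.05, and left the median difference of the members at -0.042. The count of 0 called miRNAs held under all 29 alternatives. The median difference of the 5 tested members, -0.04, ran from -0.19 to 0.06 over 30 alternatives, and from -0.10 to 0.0051 with 1 array left out. The median of all tested miRNAs moved to 0.10 with the liver channel at the 75th percentile, where 0 of 5 members lay above it. As reported, 1 of the 5 lay above the median of all, and with processed signals 3 did. The share of miRNAs above 0 ran from 42% without normalization to 83% with median centring. Signs of near-zero differences turned. For miR-17 (-0.011) they were 0.070 with processed signals, 0.085 with median centring, 0.0088 with outlier spots kept, 0.00074 with the median of spots, 0.0061 with the liver channel at the 75th percentile, and 0.051, 0.035 and 0.010 within scan days 1, 2 and 4. For miR-106a (0.013) they were -0.0057 with plain subtraction, -0.0023 with the median of spots, -0.046 with the liver channel quantile normalized, -0.022 with scan day as a block, and -0.052, -0.011 and -0.087 within scan days 1 to 3. For miR-20a they were 0.041 with processed signals, 0.061 with median centring and 0.075 within scan day 1, and for miR-19b 0.055 and 0.029 with the first 2 of these. With 1 array left out, miR-17 ran from -0.065 (without BaP 1) to 0.055 (without BaP 2), miR-106a from -0.048 (without vehicle 5) to 0.048 (without vehicle 1), miR-20a from -0.10 to 0.0051 and miR-19a from -0.17 to -0.05. Of the 5, only miR-19a kept its sign under all 30, but its difference came close to 0 under some. It was -0.010 with processed signals, -0.015 with median centring and -0.012 with the liver channel at the 75th percentile. Members at least 2-fold lower in vehicle liver numbered 2, then 3 with an offset of 10 and 4 with plain subtraction, processed signals, no normalization or median centring. With the highest negative control spot as threshold, 0 members instead of 5, and 0 of all mouse probes, passed in liver on every array; on BaP 3, 1 such spot gave 34864 units. The deposited matrix gave miR-106a, with its sign turned, a vehicle ratio of -0.83 and a difference of 0.020. The causes of the other changes were not tested. Dim signal over background limits what can be said of miR-18a, miR-18b, miR-20b, miR-92a and miR-363.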
